A study of Mus musculus with 18 samples.

Results

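Cytochrome P450 genes encode haem-containing monooxygenases, and the set described here holds every protein-coding gene of GENCODE M21 whose symbol is Cyp followed by a family number, a subfamily letter and a member number. The rule gave 94 of the 21951 protein-coding genes, on the GRCm38 build of the mouse genome, and leaves out symbols of another form, such as *Cyp51*. In the liver most of these enzymes sit in the endoplasmic reticulum, take electrons from the reductase *Por* and add an oxygen atom to drugs, toxins, fatty acids, bile acids or steroids. Many lie in tandem clusters of recent copies, so that neighbours can be near-identical in sequence. Of the 94 genes, 49 had a peak on their own strand in at least 1 of the 18 libraries, beside 7288 of all protein-coding genes, and 45 had none.

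The libraries were made from liver RNA of mice aged 8 to 9 days. Editing-deficient mice (Adar-/-; Mavs-/-) lack ADAR1, which turns adenosine into inosine in double-stranded RNA, and both genotypes lack MAVS, the adaptor of the RNA sensor MDA5, since the second group is Mavs-/- and not wild-type as its sample titles have it. Each genotype had 3 replicates of 3 fractions: undigested RNA (Input), RNA digested with a mix of RNase A and T1 (RNase-only), and RNA digested after incubation with recombinant MDA5 without its signalling domains (MDA5-protected). For every library the deposited file lists peaks, the stretches of 1 strand where reads passed the threshold of the peak caller, with no read counts, so the depth is unknown. The number of peaks per library ran from 6991 to 8948 in the Input of editing-deficient mice and from 4326 to 6625 in that of Mavs-/- mice, from 3150 to 6094 in RNase-only and from 1180 to 2868 in MDA5-protected libraries. *Adar* itself had exonic peaks in 2 of the 3 Input libraries of editing-deficient mice, over 5.57% and 3.51% of its exonic bases, and in none of the Mavs-/- mice, and *Mavs* had none in any library. Which exons the *Adar* allele removes is not given in the sources used here, so these peaks do not check the labels.

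Liver identity was read from markers in the Input. All 5 hepatocyte markers, *Alb* among them, had exonic peaks in all 6 Input libraries, whereas the 4 cholangiocyte markers *Krt19*, *Krt7*, *Epcam* and *Sox9* had none there. In the digested fractions all 5 hepatocyte markers had an exonic coverage of 0, although *Alb* had intronic peaks in 2 MDA5-protected libraries. *Krt19* and *Epcam* had exonic peaks in all 6 RNase-only libraries and *Krt7* in 5. *Krt7* had no exonic peak in the MDA5-protected libraries, and *Sox9* had none in any library. Digested peaks were called against Input, so a gene strongly covered in Input can lack them through the calling alone. A library that stands apart is RNase-only replicate 1 of editing-deficient mice, where 10.0% of the P450 peaks were intronic, against 74.0% to 83.8% in the other RNase-only libraries. Over all genes its intronic share was 21.4%, against 34.7% to 57.0%.

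Own-strand peaks in P450 genes were mostly exonic in the Input and mostly intronic in the digested fractions. A peak was called exonic if it touched an exon of any transcript of the gene, and intronic if it lay in the gene and touched none. Over the 6 Input libraries 558 of 614 P450 peaks were exonic, in 42 genes. The RNase-only libraries held 283 P450 peaks, 210 of them intronic (74.2%), in 19 genes, and 73 exonic ones in only 5 genes. In the MDA5-protected libraries 191 of 198 P450 peaks were intronic (96.5%), and the 7 exonic ones all fell in *Cyp2c55*. P450 peaks made up between 1.33% (95% Clopper-Pearson interval 1.103% to 1.591%) and 1.78% (1.41% to 2.22%) of the peaks of an Input library. They made up 0.345% (0.211% to 0.532%) to 1.46% (1.11% to 1.90%) in RNase-only and 1.16% (0.701% to 1.81%) to 2.95% (2.23% to 3.83%) in MDA5-protected libraries. These intervals cover counting error only.

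**Figure D1:**
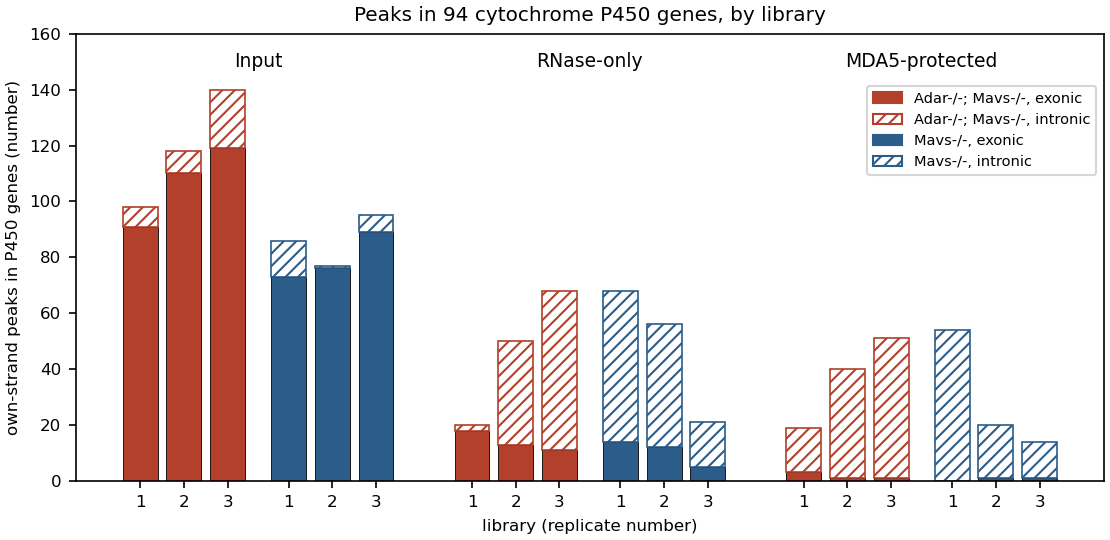
Number of own-strand peaks in the 94 P450 genes (vertical axis) in each of the 18 libraries (horizontal axis, replicate number within genotype and fraction), with filled bars for exonic and hatched bars for intronic peaks. Input bars are mostly filled, from 73 to 119 exonic peaks, whereas the digested libraries are mostly hatched apart from RNase-only replicate 1 of editing-deficient mice, with 18 exonic and 2 intronic peaks.

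The peaks were spread unevenly over the functional classes. In families 1 to 3, which clear drugs, toxins and other foreign compounds, 37 of 58 genes had a peak, and in family 4, which hydroxylates fatty acids, 9 of 17. Of the 6 genes of bile acid and oxysterol synthesis, *Cyp8b1*, *Cyp27a1* and *Cyp39a1* had peaks. *Cyp7a1*, which limits the rate of bile acid synthesis, *Cyp7b1* and *Cyp46a1* had none in any library. None of the 6 steroid hormone genes (*Cyp11a1*, *Cyp11b1*, *Cyp11b2*, *Cyp17a1*, *Cyp19a1* and *Cyp21a1*) and none of the 6 genes of vitamin D and retinoic acid metabolism had a peak. Of the 3 adrenal cortex markers, *Star* and *Mc2r* were at 0 throughout as well, while *Hsd3b1* had Input coverage of 55.8% in editing-deficient replicate 2 and 56.6% in Mavs-/- replicate 3 and 0 in the other libraries. The absence of a peak means that the gene did not pass the caller's threshold at a depth that is unknown, and *Cyp2b10*, a drug-inducible enzyme, was among these genes too.

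By chromosome, the largest clusters of peaks lay on chromosome 19, with 12 of 18 members, all 12 of them *Cyp2c* genes, and on chromosome 7, with 9 of 15. Chromosome 15, home of the *Cyp2d* cluster, had 8 of 10, chromosome 4 had 7 of 16, chromosome 5 had 5 of 8 and chromosome 17 had 4 of 11.

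Levels in the Input are given as exonic coverage, the percent of the exonic bases of a gene that own-strand peaks covered. The measure is per length, but it saturates near 100% and is no read count. *Cyp2d26* was covered over 88.2% to 99.6% of its exonic bases in the 6 libraries, *Cyp2d10* over 84.3% to 96.4%, and *Cyp2e1*, the ethanol-oxidising enzyme, over 79.0% to 88.3%. In these 3 genes the coverage of the genotypes overlapped, close to saturation. The summed area of the exonic peaks, as a share of the area of all peaks of a library, does not stop at full coverage. By this measure the mean of *Cyp2e1* in editing-deficient mice was 0.668 times that in Mavs-/- mice, and that of *Cyp2d26* was 0.707 times. Both were higher in Mavs-/- mice without overlap (two-sided exact permutation p = 0.10 each), whereas *Cyp2d10* overlapped by both measures. *Cyp2c70*, which makes the muricholic acids of rodents, varied more among replicates, with 59.9%, 70.9% and 44.1% in editing-deficient and 32.8%, 48.8% and 16.7% in Mavs-/- mice. *Cyp2d26* was above *Cyp2e1* in each of the 6 libraries, although the ranges of both genes touched, and *Cyp2d10* changed place with either. *Cyp2c70* lay below all 3 in every library.

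Between the genotypes, 16 of the 49 P450 genes had Input exonic coverage that did not overlap, meaning that every library of one genotype was above every library of the other. In editing-deficient mice 9 of the 49 genes (18.4%) were higher, beside 10.6% of all 7288 genes tested. In Mavs-/- mice 7 of the 49 (14.3%) were higher, beside 1.8% of all genes. Only a gene with an exonic Input peak can be called. Such a peak was found in 42 of the 49 P450 genes and in 4331 of the 7288, so the shares have unlike bases. Among genes that could be called, 9 of 42 P450 genes stood beside 772 of 4331 for higher in editing-deficient mice. For higher in Mavs-/- mice, 7 of 42 stood beside 131 of 4331. The balance of directions moved with the measure, to 9 and 10 genes by summed area and to 5 and 7 with equal numbers of peaks per library. For each of the 16 genes the two-sided exact permutation test gave p = 0.10, the smallest p that 3 libraries against 3 can give, so none can pass a threshold of 0.05. In bulk tissue, fewer cells of a type and less RNA per cell cannot be told apart.

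Of the 7 genes that were higher in Mavs-/- mice, 3 had no Input peak in editing-deficient mice. *Cyp1a2*, which oxidises caffeine and aromatic amines and is a classical target of the aryl hydrocarbon receptor, was covered over 64.1%, 62.2% and 36.0% of its exonic bases in Mavs-/- mice and had no peak in any editing-deficient Input library. *Cyp2j5*, an arachidonic acid epoxygenase, had 32.1%, 19.7% and 21.5% against 0 in all 3. *Cyp3a44* had 26.2%, 62.5% and 24.8% against 0 in all 3. The other 4 were listed in both genotypes.

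*Cyp8b1*, the sterol hydroxylase that leads to cholic acid, had 96.7%, 97.2% and 92.0% in Mavs-/- and 76.5%, 50.3% and 0 in editing-deficient mice. *Cyp3a16*, a form known from fetal and newborn liver, had 68.0%, 71.2% and 55.6% against 26.3%, 0 and 13.1%. *Cyp3a11*, the main *Cyp3a* enzyme of the adult liver, had 29.2%, 33.1% and 32.1% against 8.27%, 17.2% and 18.4%. *Cyp2b9* showed the smallest difference of the 7, with 84.6%, 77.7% and 84.0% against 68.7%, 74.7% and 67.3%. The 3 *Cyp3a* genes lie in 1 cluster on chromosome 5, and *Cyp3a25* beside them went the other way.

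Genes that were higher in editing-deficient mice included 3 members of family 4. *Cyp4a10*, a fatty acid hydroxylase that responds to the receptor PPARα, was covered over 74.2%, 78.0% and 88.1% of its exonic bases in editing-deficient mice and over 0, 0 and 19.9% in Mavs-/- mice. Its neighbour *Cyp4a31* had 73.3%, 69.4% and 74.9% against 5.46%, 0 and 5.78%. *Cyp4a14* was covered in all 6 libraries, with 89.0%, 86.8% and 91.3% against 51.7%, 72.5% and 70.2%. In all 3 the gap between the groups was wider than the range within the editing-deficient group. For *Cyp4a14* the gap was narrower than the range within the Mavs-/- group, which ran from 51.7% to 72.5%.

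Of the bile acid genes, *Cyp27a1*, the mitochondrial sterol hydroxylase, had 51.3%, 26.7% and 79.7% in editing-deficient mice and was at 0 in all Mavs-/- libraries. *Cyp39a1*, an oxysterol hydroxylase, had 34.2%, 15.0% and 42.1% against 0 in all 3. *Cyp8b1* of the same class thus had the opposite direction. *Cyp3a25* had 16.4%, 57.4% and 65.8% against 0 in all 3, and *Cyp2c29*, an epoxygenase, had 10.5%, 25.7% and 10.5% against 0 in all 3. *Cyp2d9*, a testosterone hydroxylase, had 84.9%, 73.6% and 78.8% against 32.5%, 9.29% and 32.4%. *Cyp2d22*, which was named after its values were seen, had 59.8%, 52.6% and 50.2% against 21.003%, 21.5% and 43.1%.

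**Figure D2:**
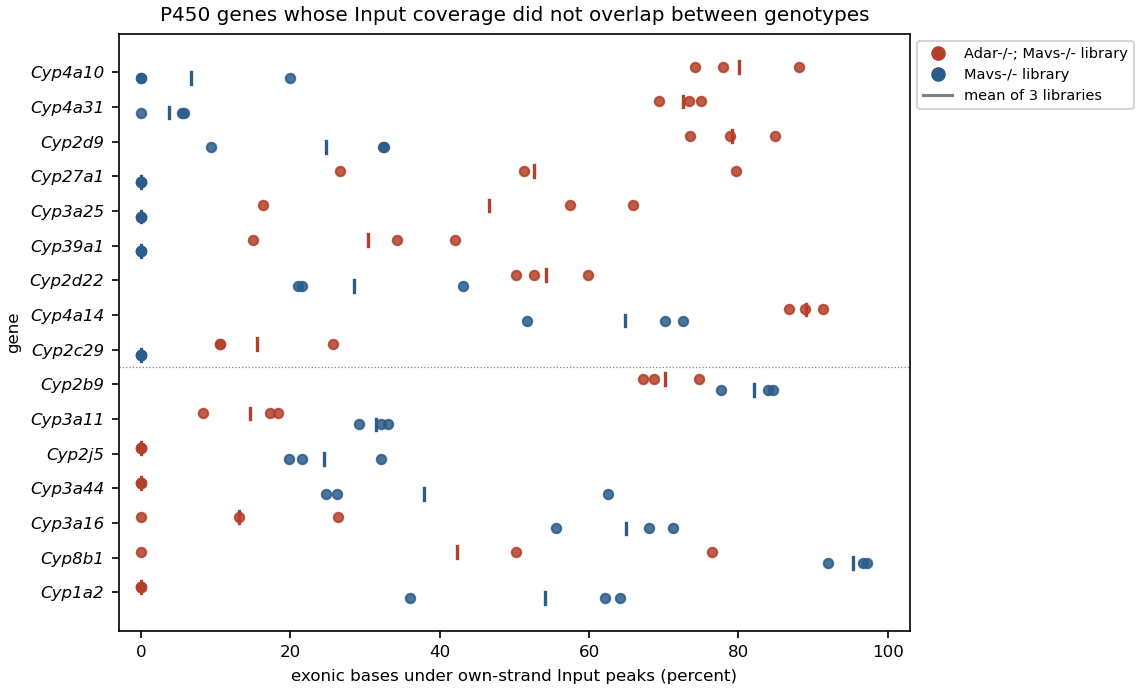
Exonic coverage in the Input (percent of exonic bases under own-strand peaks, horizontal axis) for the 16 P450 genes whose genotypes did not overlap, with 1 point per library and a bar at the mean of 3. Above the dotted line are the 9 genes higher in Adar-/-; Mavs-/- mice, with *Cyp4a10* at 74.2% to 88.1% against 0 to 19.9%, and below it the 7 genes higher in Mavs-/- mice, with *Cyp1a2* at 36.0% to 64.1% against 0.

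The editing-deficient Input libraries held more peaks, which moves with the calls in that direction. P450 genes with an exonic peak numbered 23, 27 and 32 in these libraries and 19, 17 and 23 in Mavs-/- mice, a difference in means of 7.67, and among all genes the numbers were 2441, 3066 and 3056 against 1785, 1463 and 2442. When only the strongest peaks of each library were kept, as many as the smallest Input library held, the difference in the number of P450 genes was 0.0. Under that setting *Cyp2c29*, *Cyp39a1*, *Cyp27a1*, *Cyp3a25* and *Cyp2d22* no longer had groups apart, and *Cyp4a10*, *Cyp4a14*, *Cyp4a31* and *Cyp2d9* did, as did the 7 genes higher in Mavs-/- mice. A minimum area of 1000 per peak ended the call for those 5 genes too, and for *Cyp3a16*, *Cyp2b9*, *Cyp2j5* and *Cyp3a44*.

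Marker genes of other liver cells differed between the same libraries, and their part in the P450 values was not tested. Summed over a list, the exonic coverage of the 5 hepatocyte markers was 378 to 417 in editing-deficient and 366 to 413 in Mavs-/- mice, so that the groups overlapped. Of the 5, *Tat* did not overlap, with 92.8%, 93.1% and 93.3% against 45.9%, 65.0% and 78.0%, and the others did. The 3 markers of sinusoidal endothelium summed to 34.4 to 61.7 against 0 to 14.8, with *Lyve1* at 0 in all 3 Mavs-/- libraries. The 4 Kupffer cell markers summed to 160 to 181 against 127 to 157, with *Adgre1* at 0 in both groups. The members did not move together. *Marco* (19.8%, 44.1% and 38.9% against 10.8%, 10.6% and 10.6%) and *Cd5l* were higher in editing-deficient mice without overlap. *Clec4f* overlapped, with 50.4%, 46.5% and 40.2% against 59.2%, 46.9% and 51.9%. The 3 erythroid markers summed to 124 to 163 against 175 to 203, and *Alas2* was at 0 in all 3 editing-deficient libraries. The 3 stellate cell markers summed to 12.6 to 25.9 against 16.2 to 33.2, with *Lrat* at 0 in both groups.

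Near-identical copies limit what single names stand for. The transcripts of the 94 members with the longest coding sequence were compared with each other. They were called near-identical where they matched at 95% or more over at least 50% of the shorter one, which gave 8 groups with 20 genes. Genes outside the symbol rule were not candidates. *Cyp3a44* shared 11.0% of its stretches of 75 nt with other genes, among them *Cyp3a41a*, which the rule leaves out. *Cyp3a11* shared stretches with *Cyp3a41a* too. How reads that match several places were treated is not given in the sources used here. In all, 55 of the 94 members shared at least 1 exact stretch of 75 nt with another annotated transcript, and the share of such stretches reached 57.1% in *Cyp2c40*, 43.2% in *Cyp2c69*, 36.0% in *Cyp2c67*, 30.4% in *Cyp4a32*, 28.5% in *Cyp2c68* and 26.7% in *Cyp2d10*. *Cyp4a10*, *Cyp4a31* and *Cyp4a32* were 96.0% to 97.2% identical, *Cyp2c40*, *Cyp2c67*, *Cyp2c68* and *Cyp2c69* were 96.4% to 98.0%, and *Cyp2a4* and *Cyp2a5* were 98.2%.

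To show how close the copies are where the enzyme holds its haem, the 123 coding bases around the codon of the haem-binding cysteine are given for these 3 groups, from the GENCODE M21 transcripts on GRCm38. Bases are 5′ to 3′ in lower case, with capitals where the copies of a group differ. The 3 *Cyp4a* copies lie on the plus strand, within chr4:115529463-115532597, chr4:115574911-115578002 and chr4:115614841-115621500, and differ at 1 position of the window.
Cyp4a10: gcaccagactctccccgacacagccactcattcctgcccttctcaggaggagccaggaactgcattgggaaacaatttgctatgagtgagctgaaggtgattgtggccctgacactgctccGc
Cyp4a31: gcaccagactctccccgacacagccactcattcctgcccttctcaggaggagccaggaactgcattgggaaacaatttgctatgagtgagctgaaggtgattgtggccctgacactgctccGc
Cyp4a32: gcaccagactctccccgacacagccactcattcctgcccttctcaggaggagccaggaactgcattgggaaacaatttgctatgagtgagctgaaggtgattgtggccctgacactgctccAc

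The 4 *Cyp2c* copies lie on the minus strand, within chr19:39767417-39773872, chr19:39609188-39615668, chr19:39689180-39699309 and chr19:39843003-39849394 in the order printed, and differ at 2 positions.
Cyp2c40: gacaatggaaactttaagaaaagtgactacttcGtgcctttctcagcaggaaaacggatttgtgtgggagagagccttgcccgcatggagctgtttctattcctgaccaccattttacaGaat
Cyp2c67: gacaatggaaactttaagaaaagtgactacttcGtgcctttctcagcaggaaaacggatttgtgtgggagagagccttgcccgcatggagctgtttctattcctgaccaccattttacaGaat
Cyp2c68: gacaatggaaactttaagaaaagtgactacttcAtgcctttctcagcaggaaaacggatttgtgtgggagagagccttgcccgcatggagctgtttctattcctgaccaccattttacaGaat
Cyp2c69: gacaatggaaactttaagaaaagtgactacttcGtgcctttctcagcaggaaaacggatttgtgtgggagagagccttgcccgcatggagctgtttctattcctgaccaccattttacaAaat

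*Cyp2a4* (chr7:26313648-26314776) and *Cyp2a5* (chr7:26841821-26842951), both on the plus strand, differ at 1 position. *Cyp2a5* hydroxylates coumarin, and *Cyp2a4* acts on steroids. All these windows span an intron in the genome.
Cyp2a4: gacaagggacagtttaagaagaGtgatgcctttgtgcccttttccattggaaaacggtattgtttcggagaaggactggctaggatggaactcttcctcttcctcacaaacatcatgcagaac
Cyp2a5: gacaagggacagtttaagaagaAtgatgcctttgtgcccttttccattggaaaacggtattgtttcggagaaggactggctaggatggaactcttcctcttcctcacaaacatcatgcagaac

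In editing-deficient Input libraries peaks touched this window in 3 libraries for *Cyp4a10* and *Cyp4a31*, in 2 for *Cyp4a32* and *Cyp2a4*, in 1 for *Cyp2a5* and in 3 for *Cyp2c68*. In Mavs-/- Input libraries none of these genes had a peak there. *Cyp2c40*, *Cyp2c67* and *Cyp2c69* had none there in either genotype.

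Bases that occur only in 75-nt stretches shared with another member were counted apart from the others. For each of the 94 members only the transcript with the longest coding sequence was used. The other bases lie in at least 1 stretch found in none of the other transcripts used. Pseudogenes and genes outside the set were not compared, although *Cyp2a4* and *Cyp2a5* share stretches with *Cyp2a21-ps*, and *Cyp4a31* with *9630001P10Rik*. *Cyp4a31* has 101 bases of the shared kind, none of which lay under an Input peak, while 72.3% to 78.1% of its 2408 other bases did in editing-deficient mice. *Cyp4a10* has 88, and 89.8% of them were covered in each of the 3 editing-deficient libraries, beside 73.5% to 88.1% of its other 2021 bases. In both genes the difference between genotypes was present on the latter bases. *Cyp2a4* was covered over 58.2% and 64.4% of its 1670 other bases in replicates 1 and 3 of the editing-deficient mice and was at 0 elsewhere, and *Cyp2a5* over 7.71% of its 1945 in replicate 3 alone. For *Cyp2c68* the 6 libraries ranged from 10.1% to 33.0% of its 1525 other bases.

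The remaining copies were listed in fewer libraries. *Cyp4a32* had 22.3% and 48.2% exonic coverage in replicates 2 and 3 of the editing-deficient mice and 0 elsewhere. *Cyp2c37* had 59.7%, 79.3% and 13.7% in editing-deficient and 0, 0 and 49.3% in Mavs-/- mice, whereas its copies *Cyp2c50* and *Cyp2c54* had 5.59% and 18.9%, each in replicate 2 of the editing-deficient mice only. *Cyp2a12* had 18.4% to 27.2% over all 6 libraries, and its copy *Cyp2a22* had 4.73% to 20.7%. Other annotated genes overlap 9 of the 49 listed members on the same strand, among them pseudogenes in *Cyp2d9*, *Cyp2c29*, *Cyp3a13* and *Cyp2b13*, and peaks where they overlap cannot be told apart.

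Few P450 exons were under a peak in the digested libraries. The digested libraries were called against the Input of the same genotype, so their peaks mark enrichment over Input and not an amount of RNA. For the Input libraries no such control is given, so the fractions are unlike measures. A gene strongly covered in Input can lack RNase-only peaks through the calling alone. The test that follows therefore compares peak lists and cannot show a difference in RNA. For RNase-only against Input, the exact permutation test within genotypes (400 arrangements, Benjamini-Hochberg over 7288 genes) called 12 of the 49 P450 genes (24.5%) higher in Input, beside 12.8% of all genes, and 2 (4.08%) higher in RNase-only, beside 2.59%. Only a gene with an exonic Input peak can be higher in Input, and such a peak was found in 42 of the 49 and in 4331 of the 7288. All 14 called genes had the smallest p the test can give, 0.005, and an adjusted p of 0.0325. The 12 genes were *Cyp2d26*, *Cyp2d10*, *Cyp2e1*, *Cyp4a14*, *Cyp2b9*, *Cyp2d9*, *Cyp2c70*, *Cyp2d22*, *Cyp3a11*, *Cyp2a12*, *Cyp2c68* and *Cyp2a22*, and each had an exonic peak in all 6 Input and in none of the 6 RNase-only libraries. Mean Input coverage among them ran from 10.6% in *Cyp2a22* to 94.2% in *Cyp2d26*. No P450 gene was called with any 1 replicate left out, where the smallest p is 0.0167, nor with a minimum area of 1000, with no filter on genes or under the replicate block.

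Of the 42 P450 genes with an exonic Input peak, 2 (4.76%) had an exonic RNase-only peak, *Cyp2d12* and *Cyp3a13*, beside 31.98% of the 4331 such genes overall. An intronic RNase-only peak was found in 16 of the 42 (38.1%), beside 13.4% of the 4331. In the MDA5-protected libraries the intronic count was 17 of 42 (40.5%), beside 12.0%.

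*Cyp2c55* and *Cyp2d34* were the 2 genes higher in RNase-only. *Cyp2c55* (chr19:39007019-39042693, plus strand, 9 exons), an enzyme of arachidonic acid known from the colon, had no peak in any Input library. In RNase-only its exonic coverage was 94.9%, 82.4% and 78.3% in editing-deficient and 93.9%, 89.5% and 44.5% in Mavs-/- mice. The genotypes overlapped (two-sided exact permutation p = 0.80). *Cyp2d34* (chr15:82615965-82620946, minus strand) had 61.2%, 28.4% and 28.7% against 25%, 35.1% and 8.93%, with 0 in every Input library (exact permutation p = 0.40 between genotypes).

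The peaks over *Cyp2c55* followed its exons. All 9 exons were listed, exons 6 to 9 in all 6 RNase-only libraries, and 32 of the 47 RNase-only peaks began and ended within 6 bp of both ends of an exon. Exon 8, wholly coding, is given as an example (chr19:39038100-39038241, plus strand, 142 bases in capitals), with 20 bases of the spliced neighbours on either side in lower case. In all 6 libraries its peak ended within 6 bp of both exon ends.
Cyp2c55: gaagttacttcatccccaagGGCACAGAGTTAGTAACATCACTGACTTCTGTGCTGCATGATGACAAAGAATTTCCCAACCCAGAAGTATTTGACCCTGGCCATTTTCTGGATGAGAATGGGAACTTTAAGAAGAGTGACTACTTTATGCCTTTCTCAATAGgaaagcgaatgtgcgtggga

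**Figure D3:**
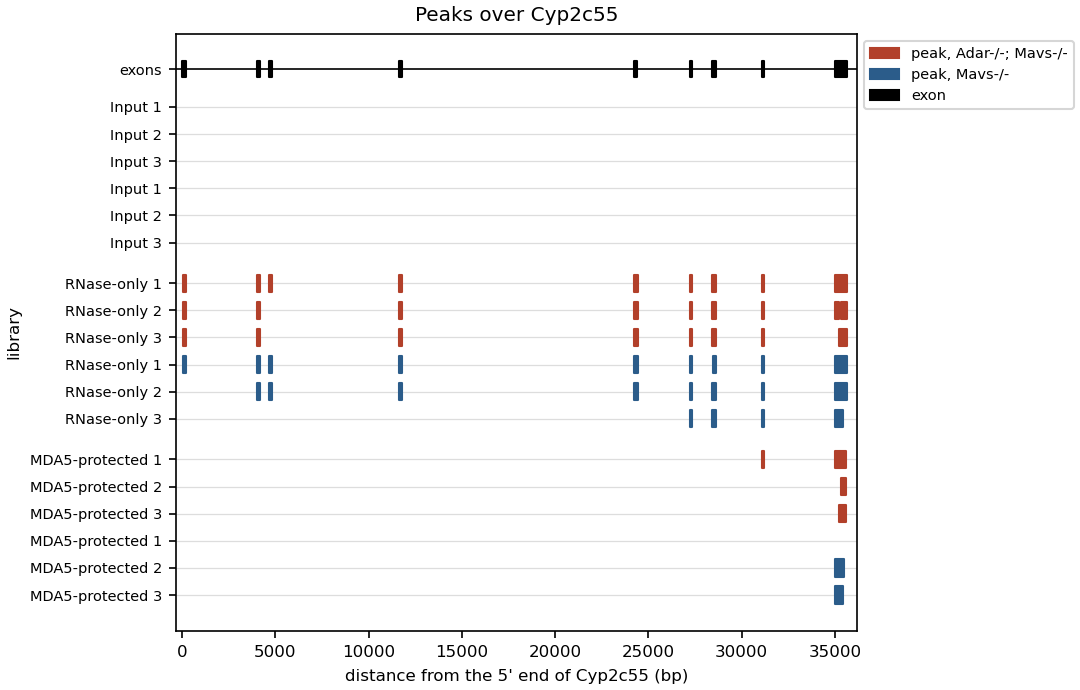
Peaks over *Cyp2c55* by library, with the distance from the 5′ end of the gene in bp on the horizontal axis, exons in black on top, and 1 row per library in the order Adar-/-; Mavs-/- (red) and Mavs-/- (blue) within each fraction. The 6 Input rows are empty, the RNase-only rows show 47 peaks stacked on the exons, and MDA5-protected peaks are left at the last exon in 5 of 6 libraries and at exon 8 in 1.

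In the MDA5-protected libraries *Cyp2c55* kept peaks at the 3′ end, with 35.2%, 12.1% and 21.1% exonic coverage in editing-deficient and 0, 25.2% and 20.9% in Mavs-/- mice. *Cyp2d34* had none. For MDA5-protected against RNase-only no gene was called by the same exact permutation test, 0 of 7288 (0.0%) in either direction, and the smallest adjusted p was 0.167. At an unadjusted p under 0.05 there were 570 genes, of which *Cyp2c55* and *Cyp2d34* are P450 genes, both lower in the MDA5-protected libraries. A call at the smallest p of 0.005 would have needed 729 genes at that p, and 218 had it.

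Among all genes, 176 had an exonic peak in all 6 RNase-only libraries and in no Input library, and *Cyp2c55* and *Cyp2d34* are the 2 P450 genes among them. A list of 12 markers of colon epithelium, drawn up after the values were seen, moved with them. Its members were at 0 in all 6 Input libraries, and 11 or 12 of them had exonic peaks in each RNase-only library, with a summed exonic coverage of 499 to 618 in editing-deficient and 373 to 537 in Mavs-/- mice. In the MDA5-protected libraries 3 to 8 of them had peaks, with sums of 116 to 163 and of 52.4 to 151. The cholangiocyte list summed to 123 to 134 and 112 to 124 in RNase-only, with *Sox9* at 0. Whether these genes and the 2 P450 genes share a source was not tested. All 5 hepatocyte markers had an exonic coverage of 0 in the digested libraries, while colon markers had exonic peaks there. *Alb* had intronic peaks in 2 MDA5-protected libraries. The part of this in any of the RNase-only and MDA5-protected values set against Input was not tested either. *Cyp2s1* had RNase-only coverage of 9.56% and 7.19% in replicate 1 of each genotype and no Input peak. *Cyp3a13* had 12.7% in Mavs-/- replicates 1 and 2, and *Cyp2d12* had 6.34% in editing-deficient replicate 1.

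No P450 gene had RNase-only exonic coverage that did not overlap between genotypes, beside 1.02% of all genes higher in editing-deficient and 0.343% higher in Mavs-/- mice. Without Mavs-/- replicate 2, *Cyp2d34* was higher in editing-deficient mice, and without Mavs-/- replicate 3, *Cyp3a13* was higher in Mavs-/- mice. Intronic coverage gave another picture. It was compared after the data were seen, and 1 gene, *Cyp2c29*, was higher in editing-deficient mice (2.04% of the 49, beside 1.4% of all genes) and 1 gene, *Cyp2j5*, higher in Mavs-/- mice (2.04%, beside 0.178%).

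Some of the intronic peaks of the digested libraries recurred at the same places. Own-strand peaks of the 12 digested libraries that overlapped were merged within each gene, which gave 117 regions in 26 genes, 98 of them intronic. Of the intronic regions 26 (26.5%) were listed in 5 or more libraries and 31 (31.6%) in a single one, beside 18.6% and 43.8% of the 4607 intronic regions of all genes. Of the 26 recurrent regions, 11 lay in *Cyp2b9* and 4 in *Cyp2c68*, and regions of the same gene are not independent. Median peak length was 236 bases for intronic RNase-only and 263 for intronic MDA5-protected P450 peaks, beside 191 and 241 over all genes. The bases of introns are not printed, since only transcript sequences of this build were used here.

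**Figure D4:**
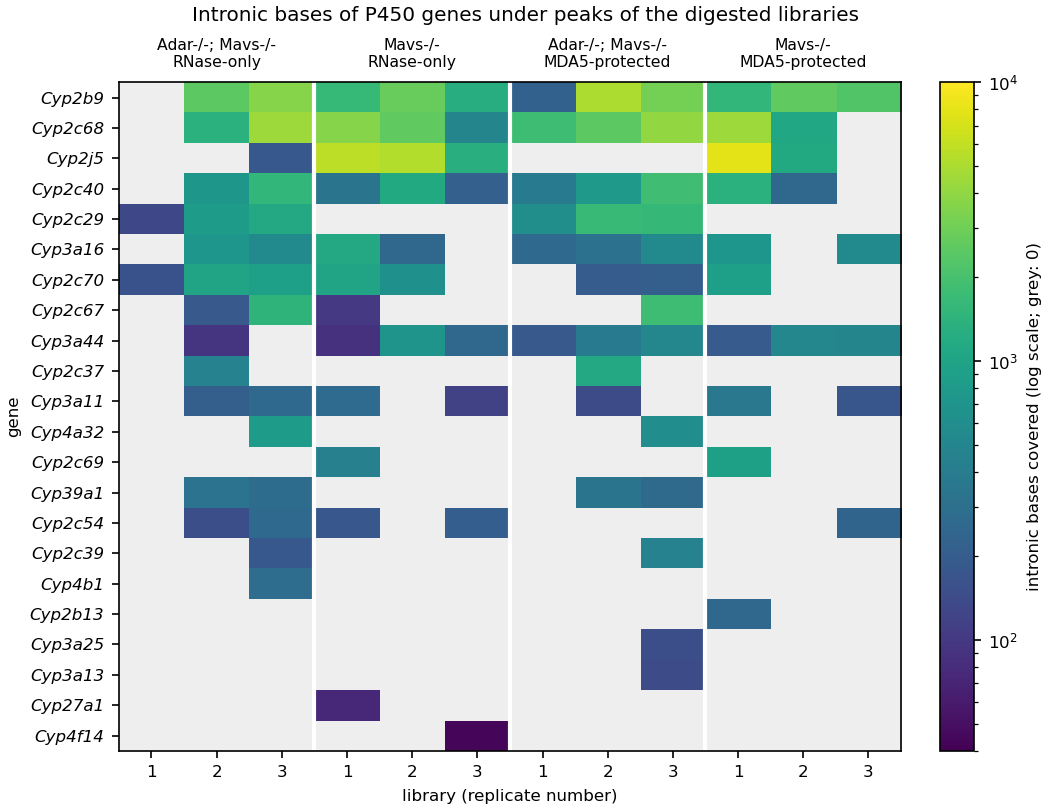
Intronic bases under own-strand peaks (colour, log scale, grey for 0) for the 22 P450 genes with an intronic peak in a digested library (rows, by their sum) and the 12 digested libraries (columns, replicate number). *Cyp2b9* is filled in every column but RNase-only replicate 1 of Adar-/-; Mavs-/- mice, *Cyp2c68* in every column but that one and MDA5-protected replicate 3 of Mavs-/- mice, *Cyp2c29* is filled in the 6 libraries of Adar-/-; Mavs-/- mice alone, and *Cyp2j5* in 5 of the 6 libraries of Mavs-/- mice and in 1 of the others.

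*Cyp2b9* (chr7:26173411-26210661, plus strand), a drug-metabolising enzyme of the *Cyp2b* cluster, was, with *Cyp2c68*, among the genes with the most intronic bases in the digested libraries. RNase-only peaks covered 0, 2498 and 3657 intronic bases in editing-deficient and 1632, 2759 and 1261 in Mavs-/- mice. MDA5-protected peaks covered 220, 5059 and 3185 against 1550, 2615 and 2255 (exact permutation p = 0.70). In both fractions the genotypes overlapped and replicate 1 of the editing-deficient mice was the lowest. Intron 4 held most of the recurrent regions. Those at chr7:26193489-26194126 (638 bp) and chr7:26194484-26195385 (902 bp) were each listed in 10 of the 12 digested libraries, 5 of each fraction. Another region, at chr7:26197636-26197988 (353 bp), was listed in all 6 MDA5-protected and in no RNase-only library, and was picked out after its values were seen. The Input also had intronic peaks in this gene, over 5416, 3506 and 718 bases in editing-deficient and 8783, 361 and 2798 in Mavs-/- mice.

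**Figure D5:**
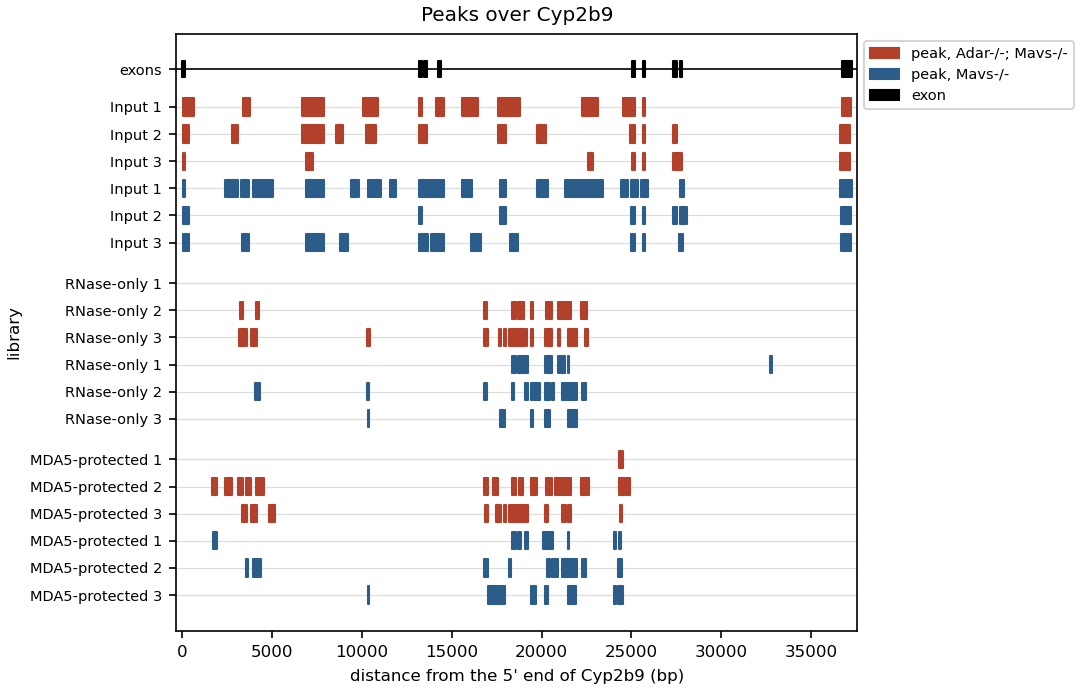
Peaks over *Cyp2b9* by library, with the distance from the 5′ end of the gene in bp on the horizontal axis, exons in black on top, and 1 row per library in the order Adar-/-; Mavs-/- (red) and Mavs-/- (blue) within each fraction. Input peaks fall on exons and introns, whereas the digested rows avoid the exons and stack in intron 4, where regions of 638 and 902 bp are listed in 10 of 12 libraries each.

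*Cyp3a44* (chr5:145773983-145805874, minus strand) showed the same kind of region in intron 12. The stretch at chr5:145775975-145776243 (269 bp), likewise picked out after its values were seen, was listed in all 6 MDA5-protected and in no RNase-only library. A neighbouring region at chr5:145775332-145775723 (392 bp) was listed in 5 MDA5-protected and 4 RNase-only libraries. Over all its introns, MDA5-protected peaks covered 187, 393 and 512 bases in editing-deficient and 194, 511 and 497 in Mavs-/- mice, although the exons of the gene had Input peaks in Mavs-/- mice alone. *Cyp3a16* had 263, 322 and 551 against 726, 0 and 563, all in intron 4 within chr5:145459599-145460406, a region listed in 9 of the 12 digested libraries. *Cyp3a11* had intronic peaks in 7 of the 12 digested libraries at chr5:145856007-145856183 in intron 12.

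*Cyp2c29* (chr19:39269405-39330713, plus strand) had intronic peaks in the digested libraries of editing-deficient mice alone. RNase-only peaks covered 131, 830 and 1111 intronic bases there and MDA5-protected peaks 617, 1704 and 1584, with 0 in all 6 Mavs-/- libraries. The groups did not overlap in either fraction (two-sided exact permutation p = 0.10 each, the smallest possible). In MDA5-protected gene-body coverage it was the only P450 gene called, 1 of 49 (2.04%) beside 2.04% of all genes, and none was higher in Mavs-/- mice, beside 0.206%. With intronic bases alone, chosen after the data were seen, the backgrounds were 1.76% and 0.0686%. The most recurrent region, chr19:39305349-39306217 in intron 3, was listed in 2 RNase-only and 3 MDA5-protected libraries. In the Input this gene had exonic peaks in the same genotype alone, as given above.

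*Cyp2j5* (chr4:96628773-96664154, minus strand) had the opposite distribution. RNase-only peaks covered 5757, 5270 and 1313 intronic bases in Mavs-/- mice and 0, 0 and 184 in editing-deficient mice (exact permutation p = 0.10), and MDA5-protected peaks covered 7959, 1141 and 0 against 0 in all 3 (exact permutation p = 0.40). The peaks lay mainly in intron 4, for instance at chr4:96652251-96654234 in 3 RNase-only and 2 MDA5-protected libraries of Mavs-/- mice. Its exons had Input peaks in Mavs-/- mice alone as well. *Cyp39a1* was listed at chr17:43739056-43739536 in intron 10, in 2 RNase-only and 2 MDA5-protected libraries, all of editing-deficient mice, where its Input peaks were found too. Because digested libraries were called against the Input of their own genotype, the Input level and the digested peaks of a gene are not independent measures.

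In the *Cyp2c40* group the recurrent intronic peaks fell in introns 5 and 6. *Cyp2c68* had 0, 1370 and 4425 intronic bases under RNase-only peaks in editing-deficient and 3692, 2604 and 489 in Mavs-/- mice. Under MDA5-protected peaks it had 1815, 2497 and 4091 against 4495, 1073 and 0. *Cyp2c40* had 0, 741 and 1564 against 338, 1152 and 219 in RNase-only, and 398, 800 and 1835 against 1368, 255 and 0 in MDA5-protected libraries, with a region at chr19:39783581-39785108 (1528 bp) in 10 of the 12. The genotypes overlapped in both genes. *Cyp2c40* had no Input peak, exonic or intronic, and its introns could not be compared with those of its copies here. *Cyp2c67* had intronic peaks in 4 digested libraries and *Cyp2c69* in 2. *Cyp2c70* had them in 8, all in intron 3.

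Between 68.4% and 75% of the P450 peaks of an MDA5-protected library overlapped an RNase-only peak of the same genotype. To list what was left, RNase-only peaks supported within 200 bp by another replicate were subtracted base by base, and the remaining MDA5-protected peaks were kept where another replicate supported them within 200 bp. This left 15 P450 peaks unique to editing-deficient mice, 6 unique to Mavs-/- mice and 5 common stretches, all 26 of them intronic. Over the whole genome the lists held 1066, 396 and 458 peaks, so that P450 genes made up 1.41%, 1.52% and 1.09% of them. The 15 lay in *Cyp2c68* (6), *Cyp2b9* (4), *Cyp2c29* (3), *Cyp2c40* (1) and *Cyp3a44* (1), with a median length of 206 bases and a longest of 574. The 6 lay in *Cyp2b9* (4), *Cyp3a16* (1) and *Cyp3a44* (1). The common stretches were in *Cyp2b9* (2), *Cyp2c68* (2) and *Cyp3a44* (1), the last at chr5:145775981-145776171. Neighbouring pieces of the same intron could thus fall into the unique and the common lists at once, as in *Cyp2b9*. Without this subtraction the lists held 32, 16 and 19 P450 peaks, and with support from all 3 replicates 7, 2 and 2.

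The number of P450 genes with any MDA5-protected peak was 7, 11 and 14 in editing-deficient and 10, 6 and 6 in Mavs-/- mice, a difference in means of 3.33. Keeping as many peaks in each library as the smallest one held left a difference of 0.333, as did a minimum area of 1000. The intronic share of P450 peaks was 84.2%, 97.5% and 98.0% against 100%, 95% and 92.9%, beside 80.4% to 82.9% and 66.3% to 83.8% over all genes. Over both genotypes it averaged 94.6% ± 5.67 (SD, n = 6) in MDA5-protected and 67.0% ± 28.1 in RNase-only libraries, where 1 library stood at 10.0%. Without replicate 1 of editing-deficient mice the difference in means was 18.3 in place of 27.6 percentage points.

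Genes that serve or regulate P450 enzymes were read from a list of 35. In the Input 29 of them (82.9%) had exonic peaks, beside 19.7% of all protein-coding genes. Of the 29, 9 were higher in editing-deficient and 3 higher in Mavs-/- mice without overlap, beside 10.6% and 1.8% of all genes tested. The bases are unlike, since only 4331 of the 7288 genes tested had an exonic Input peak and could be called. Of these, 772 were higher in editing-deficient and 131 in Mavs-/- mice. The electron donor *Por* had 68.3%, 60.03% and 61.0% exonic coverage in editing-deficient and 32.5%, 8.51% and 37.6% in Mavs-/- mice. Of the 4 haem genes, *Alas1*, which starts haem synthesis, had 6.53%, 20.8% and 16.1% against 0, 0 and 3.61%, and *Hmox1* and *Hmox2*, which break haem down, were higher in editing-deficient mice too. Of the regulators, *Nr1i3*, the receptor CAR, had 53.2%, 60.2% and 62.9% in editing-deficient and 34.2%, 0 and 21.02% in Mavs-/- mice, and *Nr0b2* and *Rxra* had the same direction. *Ahr*, the aryl hydrocarbon receptor, was the 1 regulator higher in Mavs-/- mice, with 6.08%, 8.24% and 13.2% against 0, 5.50% and 0. *Gstm1* and *Gstp1* were higher in the former and *Gsta3* and *Fmo1* in the latter. The mitochondrial donors *Fdx1* and *Fdxr* had no peak. In the MDA5-protected libraries 6 of the 35 (17.1%) had intronic and 3 (8.57%) had exonic peaks, beside 5.01% and 2.37% of all protein-coding genes, the bile acid receptor gene *Nr1h4* with intronic peaks in all 6 libraries. Among all genes with an exonic Input peak the shares were 12.0% and 5.43%. Of the 3 genes with exonic peaks, *Alas1* had 0.0648% of its exonic bases covered, in 1 library, and *Rxra* 0.952%, in 5.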

How the data were processed

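Peak lists of 18 liver libraries on GRCm38 were used, and each library took its genotype and fraction from its labels. The study's reads were trimmed (Trim Galore 0.6.6), aligned with NextGenMap and passed to Genrich 0.6.1, which called peaks for each library and strand at an adjusted p of at most 0.01, an area of at least 500 and gaps of up to 20 bp, with Input of the same genotype as the control of digested libraries. The authors left out blacklisted regions and ribosomal repeats. Each deposited peak carries a score, which is its area above the significance level as Genrich computes it, and the deposited −log10 values are its p and adjusted p. The files hold no read counts. The study describes the replicates as biological triplicates. How multi-mapped reads were handled is not given in the sources used here.

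Peaks were assigned to GENCODE M21 genes on the same strand by at least 1 bp, with positions counted from 1. Genes with a peak in at least 1 library were tested. Genotypes were compared by non-overlap of 3 libraries against 3 and by exact permutation, and fractions by exact permutation within genotypes with Benjamini-Hochberg adjustment (0.05) over all genes. The scripts were tested on simulated data. Replicate numbers did not pair the genotypes by correlations of deviations. Between RNase-only and Input these ran from -0.0880 to -0.0311, which does not show that the libraries were unpaired. In *Cyp2b9*, an Input peak of editing-deficient replicate 2 ran from 19735 to 20262 bp from the 5′ end. MDA5-protected peaks of that replicate ended at 19735 and began at 20262, and an RNase-only peak began at 20262. Digested peaks may thus depend on the Input of their own number. Between MDA5-protected and RNase-only libraries the correlations of deviations were 0.130 to 0.140 in editing-deficient and 0.0756 to 0.302 in Mavs-/- mice, and the block is given in the closing section.

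The members, lists and tests were chosen with earlier results of these data known. Named genes were the 8 most covered in Input, the 8 with exonic peaks in most RNase-only libraries, those with MDA5-protected peaks in at least 2 libraries (12 at most), those whose genotypes did not overlap (10 at most per fraction), textbook liver and steroidogenic P450 genes, and near-identical copies with a peak. Alternatives were the middle base of a peak, a minimum area of 1000, equal numbers of peaks, strand ignored, a filter of 3 libraries or none, area in place of bases, each replicate left out, a replicate block and, for the joined lists, other support and no subtraction. Intronic bases and the colon list were added after the data were seen. Python 3.11.15, numpy 2.4.6, pandas 2.3.3, scipy 1.17.1, matplotlib 3.10.9 and blastn 2.17.0 were used.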

Additional observations from a re-analysis of the deposited data

Results flagged for a closer look

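Peaks on the strand opposite to a P450 gene, which entered no comparison, numbered 10 in the RNase-only, 1 in the Input and 0 in the MDA5-protected libraries. They were picked out because the RNase-only number was above that of the Input, but 6 of the 10 came from replicate 2 of the editing-deficient mice, and the other RNase-only libraries held 0 or 1 each. Of the 10, 4 lay at 1 place in intron 1 of *Cyp2b9* (chr7:26183695-26183831 in replicate 1 of the editing-deficient mice), in all 3 editing-deficient RNase-only libraries and in Mavs-/- replicate 2. An own-strand region at chr7:26183697-26183846 was listed there in 3 RNase-only and 1 MDA5-protected libraries. Another 4 lay in *Cyp2c54*, all in RNase-only replicate 2 of the editing-deficient mice. The cause was not tested.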

How the results depend on the processing

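Among the alternative values, 105 stayed within the range set for no change, 31 moved and 2 turned their direction. Beside leave-outs, all 8 settings kept *Cyp4a31*, *Cyp4a10*, *Cyp2d9*, *Cyp1a2*, *Cyp8b1* and *Cyp3a11* in the Input and *Cyp2c29* in the MDA5-protected libraries. For Input, the 16 P450 genes without genotype overlap became 9 with a minimum area of 1000 and 17 to 19 with a replicate left out, where all 16 were kept, and the replicate block gave 18, with 11 higher in editing-deficient mice. Summed area gave 19, with 9 higher in editing-deficient and 10 in Mavs-/- mice, and equal numbers of peaks gave 12, with 5 and 7. For RNase-only, the count of 0 became 0 to 1 with a replicate left out and 2 with intronic bases, and for MDA5-protected gene-body coverage the count of 1 became 1 to 3, with *Cyp2b9* and *Cyp39a1* added without replicate 1 of editing-deficient mice, *Cyp2c40* and *Cyp2c68* without Mavs-/- replicate 1, *Cyp3a11* and *Cyp3a16* without replicate 2, and *Cyp2j5* without replicate 3.

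For RNase-only against Input, 14 calls became 0.0 with a minimum area of 1000, with no filter on genes, under the replicate block (smallest p 0.0312) and, from 0 to 0, with any replicate left out (smallest p 0.0167). Leaving out a replicate and the block raise the smallest p by construction, and no filter raises the number of genes tested. For the area the cause was not tested. MDA5-protected against RNase-only stayed at 0 under all alternatives run. The difference in P450 genes with a peak became 0.0 for Input and 0.333 for MDA5-protected libraries with equal numbers of peaks, and 0.333 for the latter with a minimum area of 1000. With replicates left out it ran from 5.33 to 9.83 and from 1.67 to 5.17. For RNase-only it was -0.333, and turned to 0.667 with a minimum area of 1000 and to 0.167 without Mavs-/- replicate 1 (range -1.0 to 0.167).

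The joined lists (15 in editing-deficient, 6 in Mavs-/- mice, 5 common) became 32, 16 and 19 without subtraction and 7, 2 and 2 with 3 of 3 replicates, and ran from 11 to 16, 3 to 9 and 2 to 8 with a replicate left out. The difference in intronic share ran from 18.3 to 30.3 percentage points. Replicate numbers of the genotypes did not deviate together (correlations of deviations from -0.195 to 0.159). Between MDA5-protected and RNase-only libraries of a genotype they ran from 0.0756 to 0.302, and each library correlated best with its own number, a hint from the data only.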
